A study of Mus musculus with 5 samples.

Results

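CDK inhibitors, the D and G cyclins and p53 target genes were examined in murine bone marrow (BM) plasma cells (PCs) after co-culture and directly ex vivo. The members were the probe sets that carry a single gene symbol in the platform annotation and whose symbol is Cdkn1a, Cdkn1b, Cdkn2c, Ccnd2, Ccnd3, Ccng1, Ccng2, Mdm2, Trp53inp1 or Phlda3. These were 26 probe sets of 10 genes, of 18193 genes with a probe set of their own and of 45037 probe sets on the array without controls, 34945 of which name 1 gene. Testing required 2 or more of the 5 arrays to reach an intensity of 50, which 25 of the 26 did, as did 30477 probe sets of the whole array. The probe set that did not pass was Ccnd3 1438805_at, which was below an intensity of 50 in all 5 arrays.

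All PCs came from C57BL/6J mice that had been primed and boosted with NP-CGG, a hapten-carrier antigen, and were isolated from the BM with magnetic beads by removal of B220+ and CD49b+ cells and enrichment of CD138high cells. Cultured PCs (3 arrays) were then kept for 3 days with ST2 cells, a murine BM stromal cell line, and the cytokine APRIL under an oxygen level like that of the BM, and were sorted by flow cytometry. Ex vivo PCs (2 arrays) went from the magnetic isolation straight to RNA preparation, without that sort. Experiment 1 gave cultured replicate 1 and ex vivo replicate 1, and experiment 2 gave cultured replicates 2 and 3 and ex vivo replicate 2. No source says that cultured replicates 2 and 3 came from separate cultures, so p-values may in part measure technical spread. Culture comes with the sort and with time outside the animal, and these cannot be told apart.

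A cell enters the cycle when cyclin D bound to CDK4 or CDK6 phosphorylates the retinoblastoma protein, and CDK inhibitors hold this step back. p21 (Cdkn1a) and p27 (Cdkn1b) bind cyclin-CDK complexes, whereas p18 (Cdkn2c) binds CDK4 and CDK6 themselves and is needed for full PC differentiation. PCs are cells that have left the cycle. The transcription factor p53 acts as a tetramer on DNA elements made of a pair of decamers and turns on Cdkn1a, Ccng1, Mdm2, Trp53inp1 and Phlda3, among which Mdm2 marks p53 for degradation. FoxO factors, which act when PI3K signaling is low, are known to turn on Cdkn1b and Ccng2 and to lower D cyclins.

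RefSeq promoter windows of GRCm38.p6, with 250 bases before and 50 after each annotated start, were available for 8 of the 10 genes (11 windows), without Ccnd2 and Trp53inp1. They were searched for the 20-base p53 response element with its decamers directly joined and at most 1 base off the consensus. This element is its own reverse complement, so a single pass covers both strands. It was found in 2 of the 11 windows, those of Cdkn1a and Ccng1, and in 29 of all 32851 windows (0.0883%). No member window held it without a mismatch, against 3 of all windows. The members were listed in part as p53 targets, so these shares do not test enrichment. The 2 windows are shown because they are the member windows that held the element, and expression was not used to choose them. No Ccng1 probe set passed the test of culture. The element is in capitals. Cdkn1a (chr17:29090729-29090978, plus strand) has its element at 51 to 32 bases before the upstream start. Ccng1 (chr11:40755310-40755536, minus strand) has its element at 195 to 176 bases before the annotated start of its window. That start lies inside the annotated gene, and bases inside the gene were left out of the sequence. The element spans positions 40755462 to 40755481, and the gene reaches to position 40755309.
Cdkn1a: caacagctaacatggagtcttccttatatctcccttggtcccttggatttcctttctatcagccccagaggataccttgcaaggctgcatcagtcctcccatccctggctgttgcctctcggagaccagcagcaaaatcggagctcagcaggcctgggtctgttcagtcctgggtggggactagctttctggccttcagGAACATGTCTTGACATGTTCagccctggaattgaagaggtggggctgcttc
Ccng1: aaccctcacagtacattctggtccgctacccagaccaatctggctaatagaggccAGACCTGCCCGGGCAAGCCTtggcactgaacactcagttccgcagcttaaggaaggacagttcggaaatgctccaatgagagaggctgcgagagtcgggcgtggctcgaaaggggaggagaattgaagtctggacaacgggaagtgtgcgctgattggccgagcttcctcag
The forkhead motif GTAAACA, on either strand, was in windows of Ccnd3 and Mdm2 (2 of 11, against 3.65% of all windows). The hypoxia response core ACGTG, on either strand, was in a window of Cdkn2c (1 of 11, against 19.6%). A match is a description of these letters, and no binding was measured.

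Cdkn1a, the gene of the CDK inhibitor p21, was higher in culture and a probe set of Ccnd2, the gene of cyclin D2, was lower when arrays were compared within their experiment. The other 8 genes had no probe set that passed the test. With culture alone in the limma model, 0 of the 25 members passed an adjusted p under 0.05, and 6 had an unadjusted p under 0.05. In that model 0.0459% of all tested probe sets passed, and 6.59% had an unadjusted p under 0.05. With the experiment as a block, 2 members were higher, where 1.24% of all probe sets were, and 1 was lower, where 0.561% were. The 3 calls came to 0 when cultured replicates 2 and 3 were averaged, to 1 without cultured replicate 2 and to 0 without cultured replicate 3. For any single probe set, the smallest two-sided p that exact permutation of 3 and 2 arrays allows is 0.1. This value ignores the experiments, and permutation within them has fewer arrangements, so that its smallest p is larger.

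**Figure D1:**
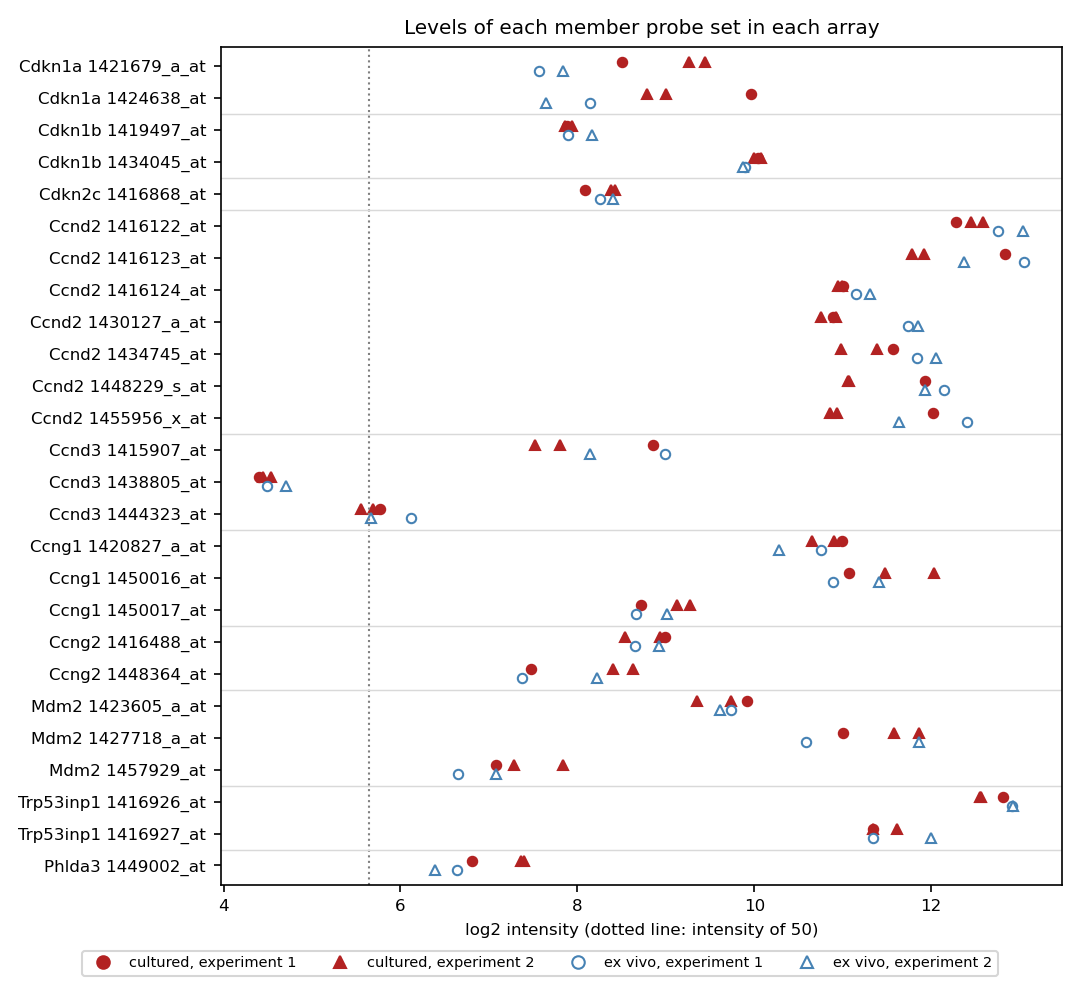
Log2 intensity (x axis) of each of the 26 member probe sets (rows) in each array. Filled red symbols are cultured PCs and open blue symbols ex vivo PCs, circles are experiment 1 and triangles experiment 2, and levels of different rows are not comparable. Both Cdkn1a rows have all cultured symbols to the right of all ex vivo symbols, and Ccnd2 1430127_a_at has them all to the left.

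Cdkn1a was measured by 2 probe sets, and both were higher in every cultured array than in either ex vivo array. Probe set 1421679_a_at had log2 intensities of 8.50, 9.44 and 9.26 in cultured replicates 1, 2 and 3, against 7.56 and 7.83 in ex vivo replicates 1 and 2. Probe set 1424638_at had 9.96, 8.78 and 9.01 in cultured PCs, against 8.14 and 7.65 in ex vivo PCs. The cultured array of experiment 1 was thus the lowest of the cultured arrays with the first probe set and the highest with the second. Within experiments, 1421679_a_at rose by 0.94 in experiment 1 and by 1.61 and 1.43 in experiment 2, and 1424638_at by 1.82, 1.13 and 1.36. With the block the log2 fold changes were 1.27 ± 0.17 (limma SE, adjusted p = 0.0321), a fold of 2.41, and 1.49 ± 0.17 (adjusted p = 0.0227), a fold of 2.81. Without the block they were 1.37 ± 0.32 (adjusted p = 0.436) and 1.36 ± 0.40 (adjusted p = 0.586). In bulk RNA, a change in the share of cells of a type and a change in RNA per cell cannot be told apart.

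Cdkn1b, the gene of p27, which keeps resting cells out of the cycle, stayed within narrow bounds. Its probe set 1434045_at had log2 intensities of 10.04, 10.07 and 10.001 in cultured PCs, against 9.89 and 9.87 in ex vivo PCs, so that the groups did not overlap although they lay close. The log2 difference was 0.16 with the block (95% confidence interval -0.10 to 0.42, adjusted p = 0.489). Its other probe set, 1419497_at, had 7.89, 7.94 and 7.86 in cultured PCs, against 7.90 and 8.16 in ex vivo PCs. That difference was -0.16 (interval -0.45 to 0.14, adjusted p = 0.536), opposite in sign. Cdkn2c, the gene of p18, had 8.09, 8.38 and 8.43 in cultured PCs, against 8.26 and 8.41 in ex vivo PCs. Its difference was -0.08 (interval -0.35 to 0.20, adjusted p = 0.763). These intervals leave out the change seen for Cdkn1a, but a p above the threshold does not show that the levels were equal.

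Among the D cyclins, which activate CDK4 and CDK6, all 7 probe sets of Ccnd2 were lower in culture in each of the 3 within-experiment comparisons. These 7 share a target gene and are not replicates. Of all 30477 tested probe sets, 7579 were lower in all 3 comparisons and 7031 were higher. The 2 comparisons of experiment 2 share 1 ex vivo array. Probe set 1430127_a_at had log2 intensities of 10.89, 10.92 and 10.75 in cultured PCs, against 11.74 and 11.85 in ex vivo PCs, and differed little between experiments. It fell by 0.85 in experiment 1 and by 0.93 and 1.09 in experiment 2, and its log2 fold change was -0.94 ± 0.12 with the block (limma SE, adjusted p = 0.0287), a fold of 0.52. Without the block it was -0.94 ± 0.13 (adjusted p = 0.172). The other 6 probe sets had block estimates from -0.61 to -0.26 and did not pass the test.

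The Ccnd2 probe set with the highest signal, 1416122_at, had log2 intensities of 12.28, 12.58 and 12.45 in cultured PCs, against 12.75 and 13.04 in ex vivo PCs. Its difference of -0.50 ± 0.11 (SE) had an adjusted p of 0.0988 with the block, and of 0.0486 when the variance prior was allowed a trend and made robust. Probe set 1455956_x_at, whose suffix marks probes that can match other sequences, gave 12.02, 10.94 and 10.86 in cultured PCs, against 12.41 and 11.64 in ex vivo PCs. Here the groups overlapped, since the cultured array of experiment 1 lay above the ex vivo array of experiment 2. Its block estimate was -0.59 ± 0.13 (adjusted p = 0.0969). Of the 7 probe sets, 4 had every cultured array below both ex vivo arrays, namely 1416122_at, 1416124_at, 1430127_a_at and 1434745_at.

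Ccnd3, the gene of cyclin D3, gave 8.86, 7.52 and 7.81 in cultured PCs, against 8.99 and 8.14 in ex vivo PCs, with probe set 1415907_at. The cultured arrays were lower by 0.13 in experiment 1 and by 0.62 and 0.34 in experiment 2, and the estimate of -0.33 (interval -0.70 to 0.04) had an adjusted p of 0.317 with the block. Its dim probe set 1444323_at, below an intensity of 50 in 1 of the 5 arrays, differed by -0.18 (adjusted p = 0.522).

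**Figure D2:**
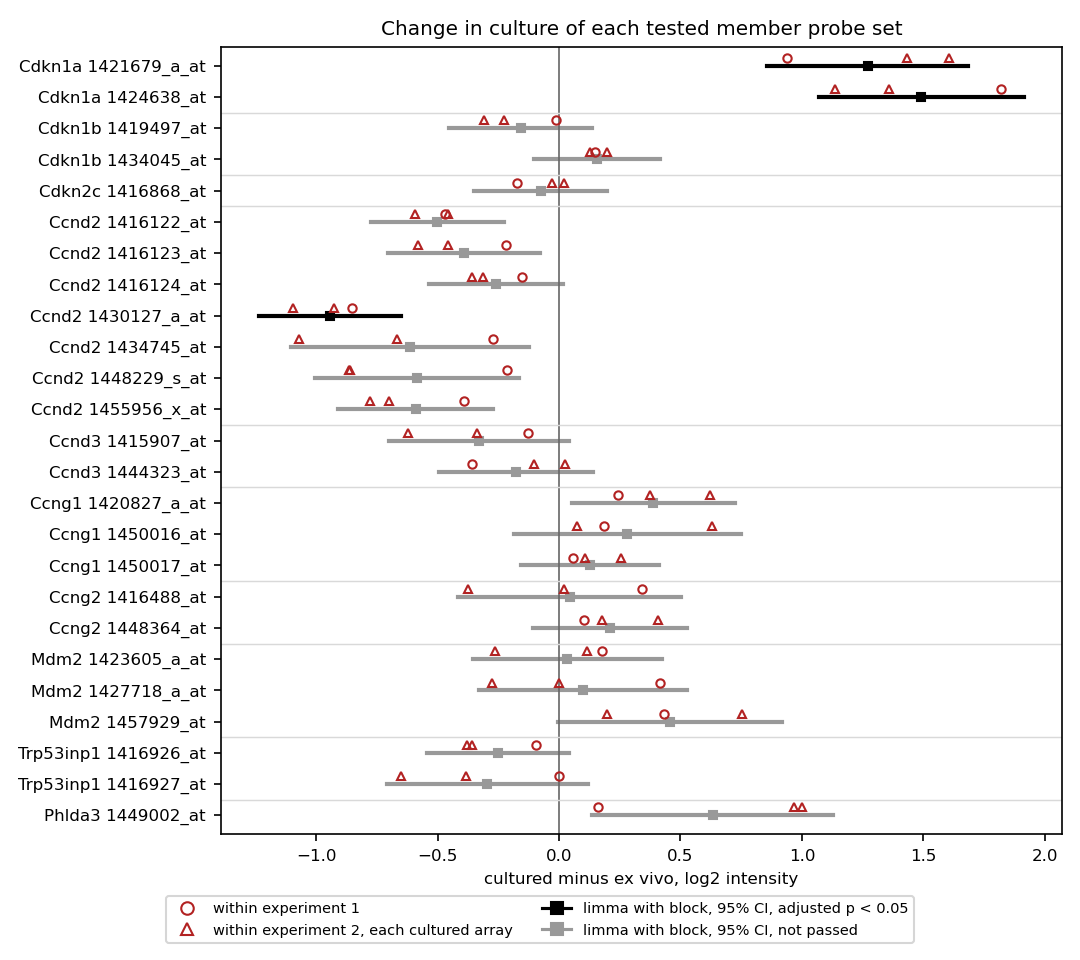
Cultured minus ex vivo log2 intensity (x axis) of the 25 tested probe sets (rows). Open red circles are the difference within experiment 1 and triangles those of each cultured array within experiment 2, and squares with lines are limma estimates with the block and their 95% confidence intervals, black where the adjusted p was under 0.05. Both Cdkn1a probe sets lie near 1.27 and 1.49, all 7 of Ccnd2 lie below 0, and most of the rest have intervals that cross 0.

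Cyclin G1 (Ccng1), a p53 target that binds a PP2A subunit and acts on Mdm2, lay slightly higher in culture with all 3 probe sets in each within-experiment comparison, and none passed the test. Of all 30477 tested probe sets, 7031 were higher in every such comparison. Probe set 1420827_a_at had log2 intensities of 10.99, 10.90 and 10.66 in cultured PCs, against 10.75 and 10.28 in ex vivo PCs, so the groups overlapped. Its block estimate was 0.39 (interval 0.05 to 0.72, adjusted p = 0.218). Probe sets 1450016_at and 1450017_at had estimates of 0.28 (adjusted p = 0.485) and 0.13 (adjusted p = 0.603). Cyclin G2 (Ccng2), which is linked to cycle arrest, gave 7.48, 8.63 and 8.40 in cultured PCs, against 7.37 and 8.22 in ex vivo PCs, with probe set 1448364_at. The experiments differed far more than the conditions in these values, and the block estimate was 0.21 (interval -0.11 to 0.53, adjusted p = 0.444). With 1416488_at the difference was 0.04 (interval -0.42 to 0.50, adjusted p = 0.925).

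Mdm2, the gene of the ubiquitin ligase of p53, had no common direction over its 3 probe sets and arrays. Probe set 1427718_a_at had log2 intensities of 11.002, 11.86 and 11.58 in cultured PCs, against 10.59 and 11.86 in ex vivo PCs. It was thus 0.42 higher in culture in experiment 1, and the cultured arrays of experiment 2 were at or below the ex vivo array. Probe set 1423605_a_at differed by 0.03 (interval -0.35 to 0.42, adjusted p = 0.933). Probe set 1457929_at had 7.09, 7.84 and 7.28 in cultured PCs, against 6.65 and 7.09 in ex vivo PCs, a difference of 0.46 (interval -0.0035 to 0.92, adjusted p = 0.274). The Mdm2 promoter known to respond to p53 lies in its first intron, outside the window searched here.

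Trp53inp1, whose product acts with p53 in stress and takes part in autophagy, had log2 intensities of 12.82, 12.55 and 12.57 in cultured PCs, against 12.91 and 12.93 in ex vivo PCs, with probe set 1416926_at. Every cultured array was lower, by 0.09 to 0.38, and the estimate of -0.25 (interval -0.54 to 0.04) had an adjusted p of 0.334 with the block. With 1416927_at the estimate was -0.29 (adjusted p = 0.412), and the arrays of experiment 1 had equal values. Phlda3, whose product competes with Akt for membrane lipids, had 6.80, 7.39 and 7.36 in cultured PCs, against 6.64 and 6.39 in ex vivo PCs. The groups did not overlap, the rise was 0.16 in experiment 1 and 1.002 and 0.97 in experiment 2, and the estimate was 0.63 ± 0.20 (SE, adjusted p = 0.191). Of the p53 targets among the members, Cdkn1a passed the test, and Ccng1, Mdm2, Trp53inp1 and Phlda3 did not.

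Over the 25 tested members, 4 had every cultured array above both ex vivo arrays, where 9.42% of all tested probe sets had, and 5 had every cultured array below, where 10.6% had. The first 4 were both Cdkn1a probe sets, Cdkn1b 1434045_at and Phlda3 1449002_at. The 5 were the 4 Ccnd2 probe sets named above and Trp53inp1 1416926_at. The median block estimate over the members was -0.08, beside -0.02 over all tested probe sets.

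The experiments differed in many of these probe sets. With culture in the model, 4 of the 25 passed as higher in the arrays of experiment 2, where 13% of all tested probe sets were, and 4 were lower, where 13.8% were. This count of 8 was 0 without ex vivo replicate 1, ex vivo replicate 2 or cultured replicate 1, and 5 without cultured replicate 3. For several genes, including Cdkn1a, the probe sets differed in sign or size. Cdkn1a 1421679_a_at was higher in experiment 2 by 0.60 ± 0.17 (SE, adjusted p = 0.048), and 1424638_at was lower by a log2 difference of -0.82 ± 0.17 (adjusted p = 0.0215). Of Ccnd2, 1416123_at and 1455956_x_at were lower, with differences of -0.85 (adjusted p = 0.00902) and -0.97 (adjusted p = 0.00693), whereas 1430127_a_at differed by 0.02 (adjusted p = 0.925).

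Both tested probe sets of Ccnd3 had lower estimates in experiment 2, and 1 passed. Probe set 1415907_at had a log2 difference of -1.04 (adjusted p = 0.0082) and 1444323_at one of -0.28 (adjusted p = 0.157). Ccng2 1448364_at was higher by 0.96 (adjusted p = 0.00696) and 1416488_at differed by -0.03 (adjusted p = 0.924). Mdm2 1427718_a_at was higher by 0.96 (adjusted p = 0.0148) and 1423605_a_at differed by -0.26 (adjusted p = 0.263). Ccng1 1450017_at was higher by 0.42 (adjusted p = 0.0453), 1450016_at differed by 0.62 (adjusted p = 0.062) and 1420827_a_at by -0.32 (adjusted p = 0.134). The 2 probe sets of Cdkn1b and of Trp53inp1, and the single ones of Cdkn2c and Phlda3, did not pass. Controls for transcript ends differed between the arrays as well. For Gapdh, the 3' signal over the 5' signal on the log2 scale was 0.63 in cultured and 0.74 in ex vivo PCs in experiment 1, and 0.30 and 0.28 in cultured and 0.34 in ex vivo PCs in experiment 2. For Actb it was 0.77 in cultured and 0.31 in ex vivo PCs in experiment 1, and -0.11 and -0.01 in cultured and -0.12 in ex vivo PCs in experiment 2, so that this ratio was also higher in culture in experiment 1. The part of these ratios in the differences between experiments and in culture was not tested.

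**Figure D3:**
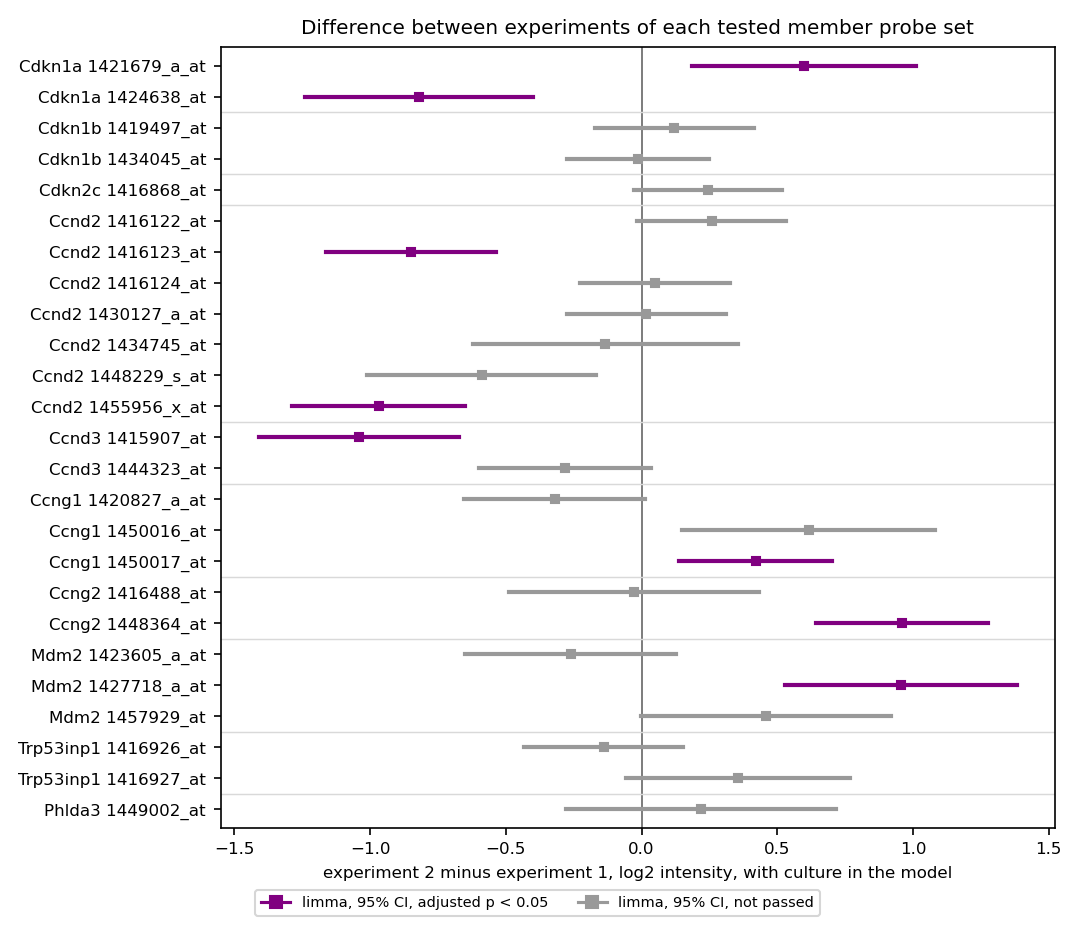
Experiment 2 minus experiment 1 in log2 intensity, with culture in the model (x axis), of the 25 tested probe sets (rows). Squares are limma estimates and lines their 95% confidence intervals, purple where the adjusted p was under 0.05. The 2 probe sets of Cdkn1a lie on opposite sides of 0, at 0.60 and -0.82, and those of Ccnd2, Ccng2 and Mdm2 are spread.

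Whether the change in culture itself differed between the experiments was tested by the interaction, which has 1 residual degree of freedom. No member passed (0 of 25, and 0% of all tested probe sets), and 2 members had an unadjusted p under 0.05, where 6.59% of all did. These were Phlda3 (difference of the changes 0.82, unadjusted p = 0.0154, adjusted p = 0.654) and Ccnd2 1448229_s_at (-0.65, unadjusted p = 0.0253, adjusted p = 0.654). That Ccnd2 probe set fell by 0.22 in experiment 1 and by 0.86 in both comparisons of experiment 2.

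Other genes of these pathways were taken from lists, with each gene represented by its tested probe set of highest mean signal. Where no gene of a list passed, those named had its largest differences in the model without the block, and the differences printed are those with the block. In this form 1 of the 10 member genes passed with the block, Cdkn1a, since the Ccnd2 probe set that passed is not its brightest. Of 13578 genes, 153 rose and 83 fell with the block. Of the other CDK inhibitors, 0 of 4 measured genes passed (median difference -0.29, beside -0.05 over all genes). Cdkn2b, which encodes p15, gave 8.41, 8.94 and 8.86 in cultured PCs, against 7.43 and 8.31 in ex vivo PCs, without overlap (difference 0.76, adjusted p = 0.0626). Cdkn3, which encodes a CDK phosphatase, differed by -0.73 (adjusted p = 0.107). Of the other G1 cyclins, CDKs and pocket proteins, 0 of 15 passed (median 0.08), with Ccne2, a cyclin E gene, at 0.59 (adjusted p = 0.234) and Ccnd1, which encodes cyclin D1, at 0.41 (adjusted p = 0.16).

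Of the p53 regulators, 0 of 11 measured genes passed (median 0.02), with Ep300, an acetyltransferase gene, at -0.15 (adjusted p = 0.78) and Ppm1d, a phosphatase gene, at 0.23 (adjusted p = 0.406). Of the other p53 targets, 0 of 20 passed (median 0.15). In this list 10 genes were higher and 5 were lower in culture in all 3 within-experiment comparisons, where 18.9% and 29.7% of all genes were. Named after their values were seen, the 10 were Sesn2, Gadd45a, Tnfrsf10b, Zmat3, Apaf1, Pmaip1, Xpc, Aen, Polk and Sesn1, with differences from 0.11 to 0.50, and the 5 were Btg2, Fas, Tigar, Pidd1 and Tap1. The antiproliferative gene Btg2 gave 10.60, 10.77 and 10.93 in cultured PCs, against 11.04 and 11.58 in ex vivo PCs (difference -0.60, adjusted p = 0.0932). Apaf1, of the apoptosome, differed by 0.28 (adjusted p = 0.264). Btg2 is also on the list of isolation stress genes, 9 of whose 15 measured genes fell.

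Of 14 measured FoxO factors and targets, 2 fell and none rose with the block (median -0.06). Klf2, a transcription factor of resting lymphocytes, gave 6.44, 6.49 and 6.47 in cultured PCs, against 9.94 and 9.68 in ex vivo PCs (difference -3.32, adjusted p = 0.00117), and also passed without the block (adjusted p = 0.0183). Il7r, the gene of an interleukin-7 receptor chain, gave 4.59, 5.06 and 4.98 in cultured PCs, against 6.61 and 6.69 in ex vivo PCs (difference -1.82, adjusted p = 0.0063). The cultured values of Il7r are below an intensity of 50. In all 3 within-experiment comparisons 5 genes of this list (35.7%) were lower and 1 (7.14%) was higher, where 29.7% and 18.9% of all genes were. Named after their values were seen, Foxo1 (-0.06, adjusted p = 0.809), Foxo3 (-0.12, adjusted p = 0.691) and Sesn3 (0.64, adjusted p = 0.0764) did not pass. The part of FoxO factors, of handling and of other cells in the falls of Klf2 and Il7r was not tested. Of 26 measured genes of S, G2 and M phase, 1 fell and none rose (median -0.29). In all 3 within-experiment comparisons 15 were lower and 0 higher, where 29.7% and 18.9% of all genes were. The gene that fell was Mcm5, of the replicative helicase, with 6.83, 8.25 and 8.19 in cultured PCs, against 8.44 and 9.20 in ex vivo PCs (difference -1.25, adjusted p = 0.0348).

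**Figure D4:**
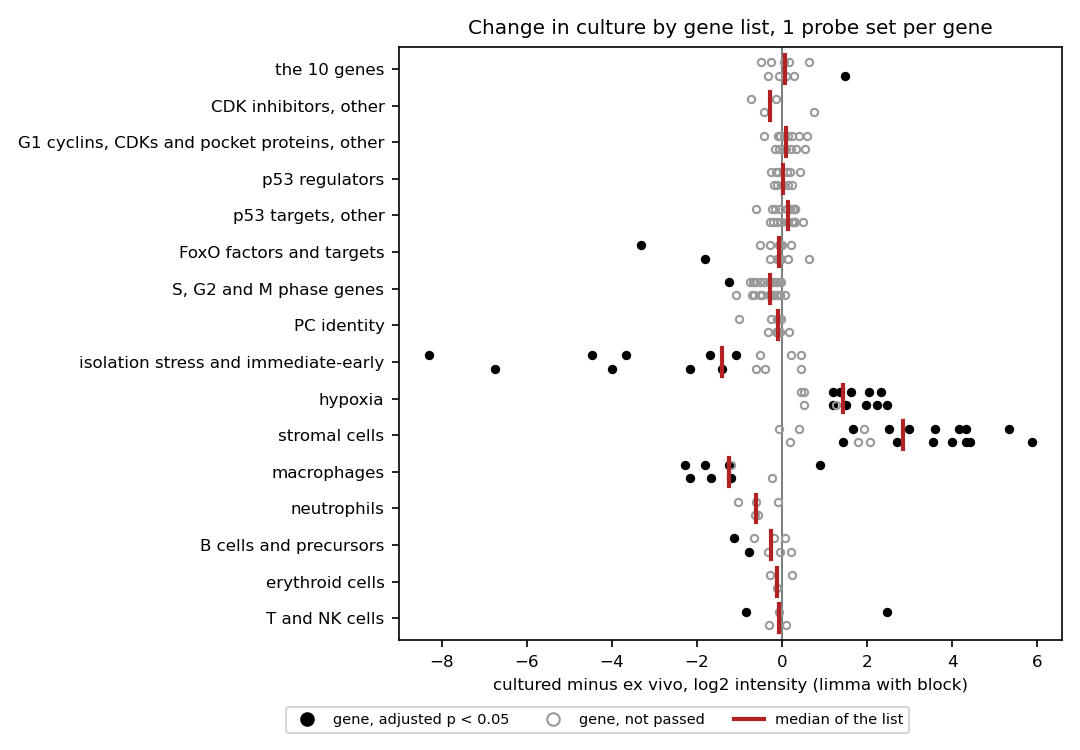
Cultured minus ex vivo log2 intensity from limma with the block (x axis) of the genes of each list (rows), 1 probe set per gene. Circles are genes, filled black where the adjusted p was under 0.05, and red bars are list medians. The p53 lists lie on both sides of 0, with medians of 0.02 and 0.15, and the S, G2 and M phase list lies mostly below 0, with a median of -0.29. The hypoxia list has a median of 1.44 and the stromal list one of 2.85.

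Markers of other cells and of handling moved with culture beside Cdkn1a and Ccnd2. Of 20 measured stromal genes, 14 rose and none fell with the block, and their summed intensity was 7586 to 18927 in cultured PCs, against 1069 to 1514 in ex vivo PCs. Among them, Col6a1 gave log2 intensities of 9.40, 11.60 and 11.59 in cultured PCs, against 4.82 and 4.74 in ex vivo PCs. Col1a2 (difference 5.34), Fn1 (4.42) and Cdh11 (4.34) rose too. In ex vivo PCs, Col6a1 and Cdh11 were below an intensity of 50 in both arrays and Fn1 in 1, so these differences are measured against background. These stromal sums were highest in the cultured arrays of experiment 2, where Cdkn1a 1421679_a_at was higher and 1424638_at was lower than in the cultured array of experiment 1. Of 15 measured genes of isolation stress and immediate-early response, 9 fell, with sums of 12937 to 15520 in cultured PCs, against 39429 to 45695 in ex vivo PCs. Fos (difference -8.30), Fosb (-6.76), Jun (-4.47) and Dusp1 (-4.00) had the largest measured falls of this list. Fos and Fosb were below an intensity of 50 in all 3 cultured arrays, so the sizes of these falls run into background.

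Of 14 measured hypoxia genes, 10 rose, with sums of 19955 to 21544 in cultured PCs, against 7710 to 9979 in ex vivo PCs. They included Ankrd37 (2.48), Egln3 (2.34), Adm (2.23) and Bnip3 (2.06), of which Egln3 was below an intensity of 50 in both ex vivo arrays and Adm in 1. Of 9 macrophage genes, 6 fell and 1 rose, with sums of 1510 to 1921 in cultured PCs, against 1786 to 2324 in ex vivo PCs, and C1qb (-2.28), C1qa (-2.16), Fcna (-1.80) and Mrc1 (-1.68) fell. Of these, C1qb and C1qa were below an intensity of 50 in all 3 cultured arrays. The gene that rose was Cd68 (0.89), named after its value was seen. Of 8 genes of B cells and precursors, 2 fell, Dntt (-1.14) and Cd72 (-0.77), with sums of 10621 to 11727 in cultured PCs, against 11696 to 12051 in ex vivo PCs. Of 5 genes of T and NK cells, Ccl5 rose (2.48) and Gzma fell (-0.84), with sums of 579 to 763 in cultured PCs, against 359 to 406 in ex vivo PCs. These sums include Ccl5, with log2 intensities of 9.04, 8.24 and 8.33 in cultured PCs, against 6.00 and 6.23 in ex vivo PCs. In all 3 within-experiment comparisons only Ccl5 was higher and 2 genes were lower, where 18.9% and 29.7% of all genes were. The higher sums in culture are thus not a rise of the whole list.

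Of 5 neutrophil genes none passed, with sums of 361 to 392 in cultured PCs, against 462 to 652 in ex vivo PCs, and Ngp (-1.03) and S100a9 (-0.64) differed most. Of 3 erythroid genes none passed, with sums of 176 to 186 in cultured PCs, against 175 to 222 in ex vivo PCs, and the differences of Ermap (-0.29) and Klf1 (0.24) were the largest by size. As a check of the labelled cell type, all 10 PC genes were measured, and none passed. In all 3 within-experiment comparisons 6 of them were lower and 1 was higher, where 29.7% and 18.9% of all genes were. A p above the threshold does not show equal levels of these 10 genes. Their summed intensity was 60430 to 62377 in cultured PCs, against 63946 to 66115 in ex vivo PCs, and Fkbp11, a chaperone gene (-1.002, adjusted p = 0.0503), and Tnfrsf17, which encodes the APRIL receptor BCMA (-0.32), differed most. The part of these other cells and of handling in the changes of Cdkn1a and Ccnd2 was not tested.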

How the data were processed

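RNA from 3 cultured and 2 ex vivo PC samples of 2 experiments was hybridized to Affymetrix mouse expression arrays. The authors summarized the signals by RMA in the affy package. GCOS also stands in the submitters' processing notes, and no versions are given in the sources used here. As deposited, the values were linear intensities (medians 87.05 to 94.14 per array), and log2 was taken of them. The number of arrays limits the precision. Control probe sets (64) and the filter set aside, 30477 probe sets went into limma 3.58.1, run in R 4.3.3 (lmFit, eBayes, Benjamini-Hochberg over all of them, adjusted p under 0.05). The first model had culture as its only term, since the methods name limma without a covariate. Other fits added the experiment as a block, tested the experiment with culture as covariate, or tested their interaction. The labels share experiments between the groups and the methods call them independent, so they pair the arrays. Cultured replicates 1, 2 and 3 deviated from their group mean together with the ex vivo array of their own experiment (r across probe sets 0.75, 0.56 and 0.72). Deviations sum to 0 within each group, so these 3 values are not independent of each other.

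Genes were named from the platform annotation, updated through RefSeq gene identifiers, and the 932 probe sets with several genes were not named. Named genes were all members and, of each other list, up to 4 that passed in either culture model, by size of change without the block, or up to 2 with the largest differences without the block where none passed. Members and lists were chosen with earlier results of these data known. The lists were other CDK inhibitors, other G1 genes, p53 regulators, other p53 targets, FoxO factors and targets, S, G2 and M phase genes, PC identity, isolation stress, hypoxia, and markers of stromal cells, macrophages, neutrophils, B cells, erythroid cells, and T and NK cells. Both culture models were tested on simulated data. Alternatives were the block, averaging cultured replicates 2 and 3, the filter, the normalization, an offset, the variance prior and leaving out each array. The array values carry no genome build. Sequences and positions come from RefSeq tables of GRCm38.p6.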

Additional observations from a re-analysis of the deposited data

Results flagged for a closer look

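Mdm2 1427718_a_at was higher in culture in experiment 1 (0.42 on the log2 scale), and both cultured arrays of experiment 2 were below their ex vivo array (differences of -0.0017 and -0.27). The change of experiment 2 minus that of experiment 1 was -0.55, and limma's interaction test did not pass (unadjusted p = 0.15, adjusted p = 0.657).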

How the results depend on the processing

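Without the block, 0 members passed under every alternative of filter, normalization, offset, variance prior and averaging and without each array in turn (0 to 0), and 3 passed with the replicate block. Over all tested probe sets, 14 passed without it, and 379 were higher and 171 lower with it. With the replicate block, 3 became 0 without a filter and 0 with the cultured arrays of experiment 2 averaged, and 0 to 1 without cultured replicate 3 or 2. The alternatives that combine the block with a filter, normalization, offset or prior were chosen after seeing the data, and the other 6 of them gave 2 to 4. The adjusted p of Cdkn1a 1424638_at was 0.059 without a filter and 0.0503 after averaging. The 8 members that differed between the experiments were 6 to 10 under other settings, and 0 to 6 when an array was left out. Of 341 member log2 fold changes without the block, 326 kept their sign, and of 241 with it, 238 did, and no called value changed sign. The interaction count stayed 0 under 7 other settings. It could not be fitted with an array left out, and the block could not be fitted with both groups in both experiments without an ex vivo array or cultured replicate 1. No detection call was used, and the dim probe sets of Ccnd3 limit what is known of that gene.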
